A study of Mus musculus with 23 samples.

Results

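The collagen chain genes of the mouse heart are described here, taken as every feature whose symbol is Col, a number, a and a number. There were 44 such genes among 43151 features, and the 25 with at least 1 FPKM (fragments counted per length of transcript and per size of library) in at least 3 of 23 libraries are reported. The RNA came from hearts of C57BL/6 mice of 7 groups. At day 77 these were CnATg mice given JIB-04 (4 libraries), CnATg mice given vehicle (4) and WT mice given JIB-04 (3). At day 45 they were CnATg mice given JIB-04, CnATg mice given vehicle, WT mice given JIB-04 and WT mice given vehicle, with 3 libraries each. CnATg mice carry a calcineurin A transgene under an MHC promoter, a promoter of heart muscle cells. JIB-04 inhibits Jumonji histone demethylases and was given 3 times a week at a dose of 50 mg/kg. Treatment began in week 4 for the day-45 groups and in week 5 for the day-77 groups, but no start week is given for the WT JIB-04 samples, so age and treatment schedule cannot be told apart. The study asked what Jumonji inhibition does to gene expression in severe hypertrophy. WT hearts under vehicle at day 77 were not analysed here. The series' design text describes vehicle as the only treatment of WT mice, whereas the sample labels place 6 WT libraries under JIB-04. The groups follow the sample labels, so the JIB-04 genotype comparisons and the drug and age comparisons in WT hearts rest on those labels.

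Collagens are extracellular proteins in which chains wind around each other into a helix. Fibrillar collagens, mainly types I and III in the heart, form the cables that tie muscle bundles together and that accumulate in fibrosis, and they are made chiefly by fibroblasts. Type IV collagen forms the sheet-like network of basement membranes around heart muscle cells and vessels. FACIT collagens sit on the surface of fibrils. The remaining chains include type VI beaded filaments, the short type VIII network of vessel walls and fibrotic matrix, and the multiplexins Col15a1 and Col18a1 of basement membrane zones.

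The transgene was visible as Ppp3ca, the calcineurin A alpha gene, at 1415 to 1987 FPKM in the 14 CnATg libraries, against 23.6 to 29.0 FPKM in the 9 WT libraries. Between 12381 and 12782 features per library had at least 1 FPKM. The mitochondrial share of summed FPKM was 15.5 to 17.4% in CnATg libraries and 20.8 to 27.1% in WT libraries. Relative read depth was estimated at 0.959 to 1.31 in CnATg libraries and 0.590 to 0.952 in WT libraries. The estimate used the nonzero values of 863 features of low level, so a genotype difference in such features would move it too. Read counts are not in the files, so no counting error can be given. Some libraries were low in most collagens: within its group CnATg JIB-04 day 45 replicate 2 was lowest for 19 of the 25 chains, CnATg JIB-04 day 77 replicate 1 for 18 and WT JIB-04 day 77 replicate 2 for 19. Replicate 3 of the day-45 WT vehicle group and of the day-45 WT JIB-04 group were each lowest for 18, by smaller margins. Counts of called chains are therefore also given without the 3 lowest libraries, an alternative chosen after seeing the data. The WT JIB-04 samples stand in a block of sample numbers of their own, and whatever goes with that numbering cannot be told apart from genotype in the JIB-04 comparisons or from drug in WT hearts. The labels do not say that each library came from its own mouse, so p-values measure the spread between these libraries, which may be technical. In whole hearts, fewer cells of a type and less RNA per cell cannot be told apart.

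Of the 25 reported chains, 8 of 11 known fibrillar chains, 5 of 6 type IV chains, 3 of 9 FACIT chains and 9 of 18 other chains passed the level rule. Col23a1 stood just inside it with 3 libraries at 1 FPKM or more, and Col12a1, a FACIT chain, just outside with 1. Below the rule were Col2a1, Col4a6, Col6a4, Col6a5, Col7a1, Col9a1, Col9a3, Col10a1, Col11a1, Col12a1, Col13a1, Col17a1, Col19a1, Col20a1, Col22a1, Col24a1, Col25a1, Col26a1 and Col28a1. By group mean FPKM, a level per length, Col3a1 led the collagens in every CnATg group, at 85.0 FPKM in JIB-04 hearts and 105 FPKM in vehicle hearts at day 77 and at 118 FPKM in JIB-04 hearts and 142 FPKM in vehicle hearts at day 45. In every WT group Col4a1 led instead, at 49.7 FPKM under JIB-04 at day 77, 83.7 FPKM under JIB-04 at day 45 and 94.96 FPKM under vehicle at day 45. Below Col3a1 in CnATg vehicle hearts at day 45 came Col4a2 (72.5 ± 1.69 FPKM), Col4a1 (66.9 ± 1.70), Col1a2 (66.0 ± 1.45) and Col1a1 (59.2 ± 1.23; SD, n = 3 each). Col4a1 and Col1a2, neighbours in that order, lay within their spread of each other. The plot of 12 chains by library shows these levels.

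**Figure D1:**
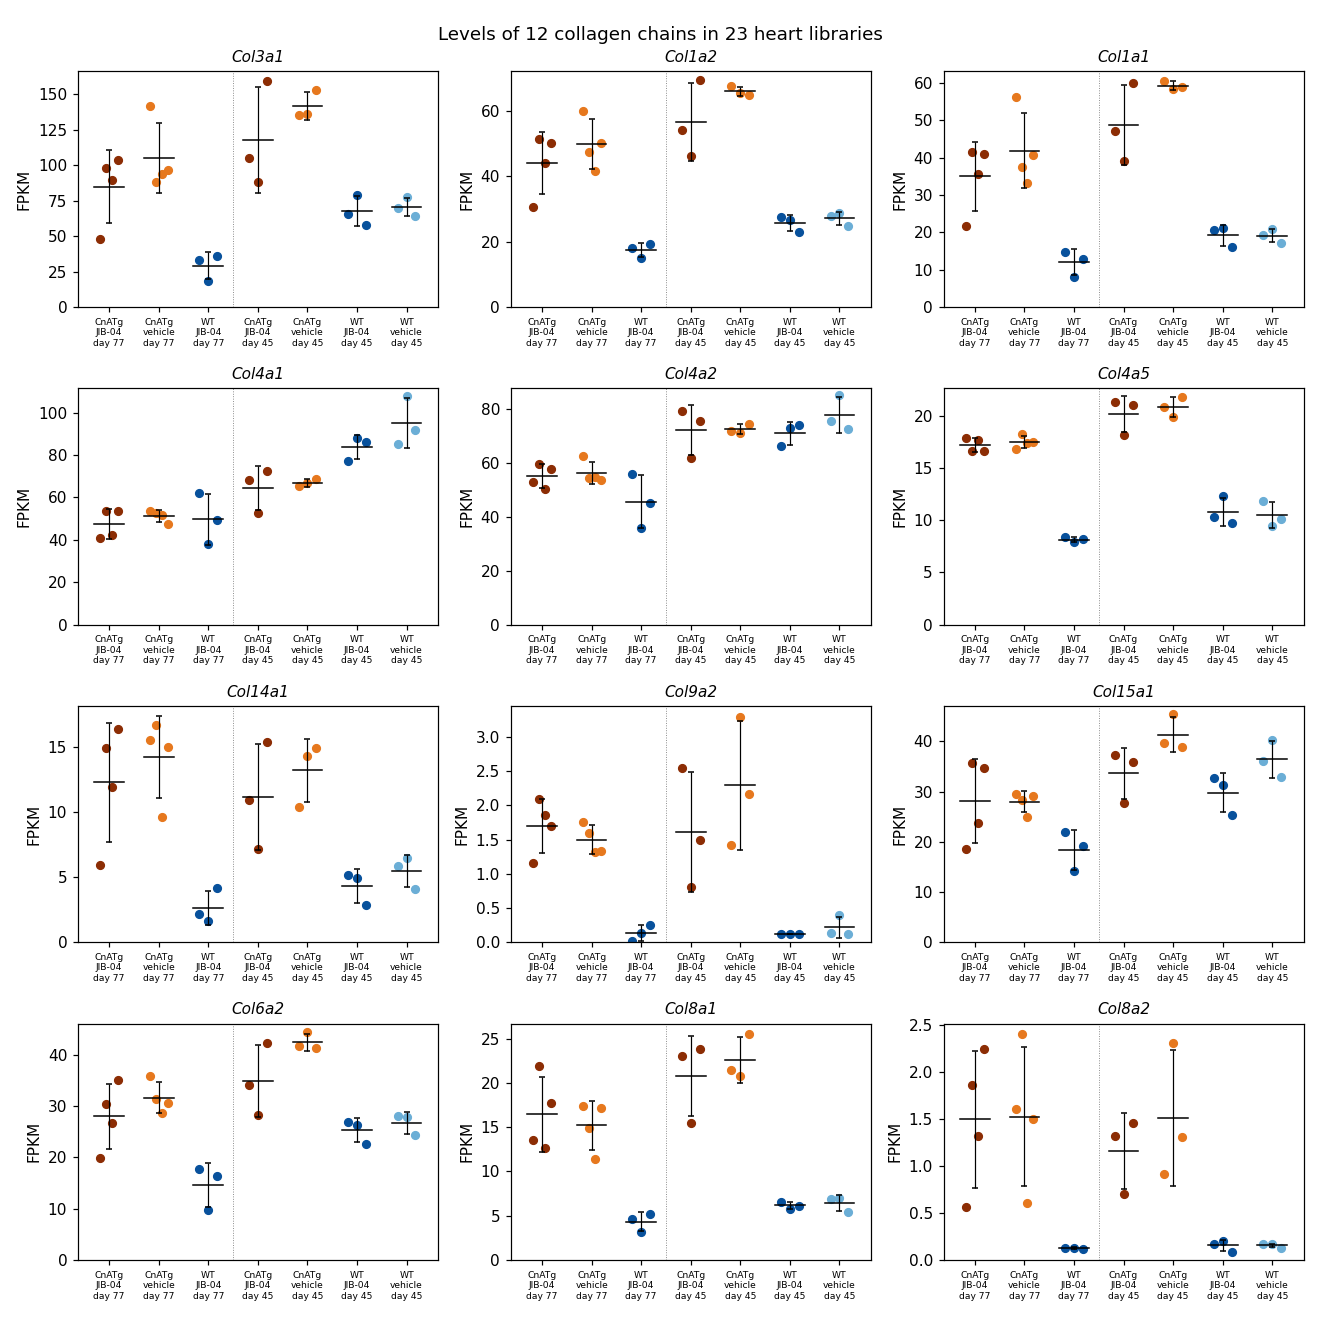
FPKM (vertical axis, from 0, own scale per panel) of 12 collagen chains in 7 groups of heart libraries (horizontal axis; day 77 left and day 45 right of the dotted line); points are libraries, bars the mean and the SD. The 14 CnATg libraries lie above all 9 WT libraries for Col1a1, Col1a2, Col4a5, Col8a1, Col8a2 and Col9a2, whereas Col4a1 is higher in WT than in CnATg libraries at day 45 and overlaps at day 77.

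CnATg hearts held more RNA of type I, III and VIII collagen and of the FACIT chains Col14a1 and Col9a2 than WT hearts. Col4a1 was lower in CnATg hearts at day 45 and overlapped at day 77. Among 24 chains tested in each comparison, 14 rose and 1 fell under JIB-04 at day 77, 12 rose and 2 fell under JIB-04 at day 45, and 14 rose and 1 fell under vehicle at day 45. Called means an adjusted p under 0.05 in limma (moderated test on log2(FPKM + 1), Benjamini-Hochberg over all features with at least 1 FPKM in at least 3 libraries of the fit). Over all features the share called was 42.1% under JIB-04 at day 77 (19.9% higher, 22.1% lower), 38.6% under JIB-04 at day 45 (20.5% higher, 18.1% lower) and 39.2% under vehicle at day 45 (23.3% higher, 15.9% lower). For the collagens it was 62.5%, 58.3% and 62.5% in the same order of comparisons. The median log2 difference of the tested collagens was 0.52 under JIB-04 at day 77, 0.40 under JIB-04 at day 45 and 0.54 under vehicle at day 45, beside -0.01, 0.02 and 0.07 over all features. Without the 3 lowest libraries 14 chains rose and 1 fell in each comparison. The fewest calls after leaving out 1 library were 12, 10 and 14. The groups compared in the 3 genotype comparisons share no library, but those of day 45 came from the same fit and share its estimate of the spread. Values given for all 3 below keep the order JIB-04 day 77, JIB-04 day 45, vehicle day 45. Of the 23 chains tested in all 3, 11 rose in all 3: Col1a1, Col1a2, Col3a1, Col5a2, Col4a4, Col4a5, Col14a1, Col9a2, Col6a2, Col8a1 and Col8a2. Col4a3, Col8a2 and Col9a2 reached 1 FPKM only in CnATg libraries (highest WT values 0.842, 0.206 and 0.395 FPKM). So did Col23a1, which was tested only under JIB-04 at day 77 and was not called there. All of these chains could be tested only through the genotype where they were high, so the filter favoured their rise in the counts given here. Col11a2 fell under JIB-04 at day 77 and Col6a6 under JIB-04 at day 45. Only WT libraries of those comparisons reached 1 FPKM for them, so the filter favoured these falls. None of the 23 chains fell in all 3, and none was called in opposite directions. The share of all features called in all 3 was not computed, so these shared counts cannot be set against it. Of the 25 reported chains, 7 were called in none: Col5a3, Col4a2, Col16a1, Col6a3, Col15a1, Col18a1 and Col23a1. Col23a1 was not tested at day 45, where its highest value was 0.826 FPKM. There its CnATg libraries lay above the WT libraries, at 1.49 times the WT mean under JIB-04 and 2.52 times under vehicle.

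**Figure D2:**
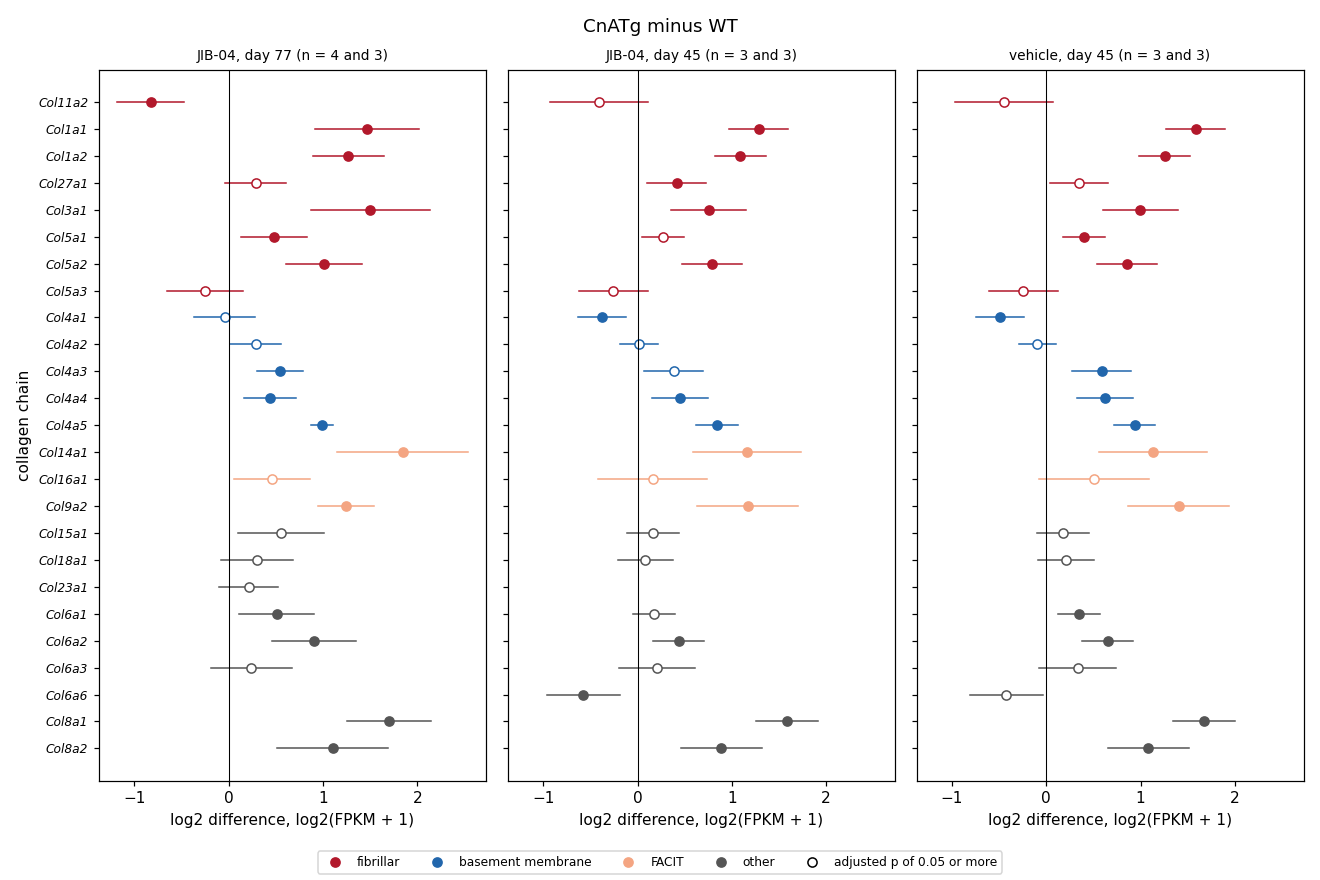
Log2 difference, CnATg minus WT, on the log2(FPKM + 1) scale (horizontal axis) for each collagen chain (vertical axis, ordered and coloured by class) under JIB-04 at day 77, JIB-04 at day 45 and vehicle at day 45; lines are 95% confidence intervals and filled points have an adjusted p under 0.05. Col1a1, Col1a2, Col8a1, Col9a2 and Col14a1 lie above 1 in all 3 panels, and Col4a1 lies at -0.04, -0.38 and -0.49.

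Among the fibrillar chains, which build type I, III and V fibrils, 5 of 8 rose in each genotype comparison. Col1a1, the alpha 1 chain of type I collagen, had 21.7, 41.3, 35.7 and 41.0 FPKM in the CnATg JIB-04 hearts of day 77, against 14.8, 8.12 and 13.0 FPKM in the WT JIB-04 hearts. At day 45 under JIB-04 it had 47.1, 38.9 and 60.01 FPKM in CnATg hearts, against 20.5, 21.1 and 16.1 FPKM in WT hearts. At day 45 under vehicle it had 60.6, 58.2 and 58.9 FPKM in CnATg hearts, against 19.3, 20.9 and 17.2 FPKM in WT hearts. No CnATg library overlapped with a WT library of its comparison, and CnATg JIB-04 day 77 replicate 1 was the lowest CnATg library. The ratio of group means was 2.92, 2.53 and 3.09 in the same order, and the log2 differences were 1.47 ± 0.25, 1.28 ± 0.14 and 1.58 ± 0.14 (SE; limma adjusted p = 0.000714, 3.12e-05 and 6.56e-06). Col1a2, which supplies the alpha 2 chain of the same molecule, had 30.7, 51.4, 44.1 and 50.2 FPKM in CnATg hearts and 18.1, 14.97 and 19.4 FPKM in WT hearts under JIB-04 at day 77. With vehicle at day 45 it had 67.6, 65.6 and 64.8 FPKM in CnATg hearts and 27.9, 28.7 and 24.7 FPKM in WT hearts. The log2 differences of Col1a2 were 1.27 ± 0.17 under JIB-04 at day 77, 1.09 ± 0.12 under JIB-04 at day 45 and 1.25 ± 0.12 under vehicle at day 45 (SE; limma adjusted p = 0.000136, 3.97e-05 and 1.42e-05).

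Col3a1, the only chain of type III collagen, had 47.9, 98.25, 89.9 and 104 FPKM in CnATg hearts, against 33.3, 18.6 and 35.9 FPKM in WT hearts under JIB-04 at day 77. At day 45 under JIB-04 it had 105, 88.3 and 159.6 FPKM in CnATg hearts, against 66.0, 78.8 and 58.2 FPKM in WT hearts. In vehicle hearts of day 45 it had 136, 136 and 153 FPKM in CnATg hearts, against 69.8, 77.5 and 64.6 FPKM in WT hearts. The libraries did not overlap in any of these, and the ratio of group means was 2.90 at day 77 and 1.74 and 2.00 at day 45. Its log2 difference was 1.5 at day 77 under JIB-04, 0.76 at day 45 under JIB-04 and 0.99 at day 45 under vehicle (limma adjusted p = 0.00149, 0.00637 and 0.00112). The change of the genotype difference between the ages under JIB-04 was 0.74 for Col3a1, with a 95% interval from -0.03 to 1.52 (limma adjusted p = 0.74), so the larger value at day 77 was not a called difference. Col5a2, a chain of the type V collagen that starts fibrils, had 5.70, 9.87, 6.76 and 9.56 FPKM in CnATg hearts and 3.73, 2.51 and 4.00 FPKM in WT hearts under JIB-04 at day 77. Under vehicle at day 45 it had 10.8, 12.1 and 13.4 FPKM in CnATg hearts and 5.88, 7.24 and 5.71 FPKM in WT hearts. The Col5a2 libraries did not overlap in either comparison, and its log2 differences were 1.01 under JIB-04 at day 77, 0.79 under JIB-04 at day 45 and 0.85 under vehicle at day 45.

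The other type V chains did not follow Col5a2 in size. Col5a1 had log2 differences of 0.48, 0.27 and 0.40 in the 3 comparisons and was called under JIB-04 at day 77 and under vehicle at day 45. The Col5a1 call at day 77 was lost in the fit without WT JIB-04 day 77 replicate 2 (0.33, limma adjusted p = 0.13) and in 3 other fits that left out replicate 3 of that group or replicates 2 or 4 of CnATg JIB-04. Col5a3, the third type V chain, had -0.25, -0.26 and -0.24 and was not called. Col5a1 RNA stood at 0.757 to 1.20 times Col5a2 RNA in the 14 CnATg libraries and at 1.23 to 1.57 times in the 9 WT libraries, without overlap. Col27a1, a minor fibrillar chain, had 0.28, 0.42 and 0.35, and its only call, under JIB-04 at day 45, was lost when any library but WT JIB-04 replicate 2 was left out. Col11a2, a fibrillar chain best known from cartilage, went the other way, with 0.639, 0.358, 0.735 and 0.432 FPKM in CnATg hearts and 1.94, 2.30 and 1.09 FPKM in WT hearts under JIB-04 at day 77. Those libraries did not overlap, with a log2 difference of -0.83 (limma adjusted p = 0.00179). Only the WT libraries among them reached 1 FPKM, so the level filter favoured this fall. At day 45 Col11a2 libraries overlapped, at -0.41 under JIB-04 and -0.45 under vehicle, and it was not called.

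Type IV collagen chains are made from genes that lie head to head in pairs, Col4a1 with Col4a2 (chromosome 8, GRCm38) and Col4a3 with Col4a4 (chromosome 1), while Col4a5 lies on chromosome X beside Col4a6. The Col4a1 gene occupies 11198423 to 11312826 on the minus strand and Col4a2 11312805 to 11449287 on the plus strand. Their start sites are 21 bases apart and 22 exonic bases overlap in antisense, which libraries without strand cannot assign. Col4a3 and Col4a4 start 72 bases apart. The promoter windows, 250 bases before to 50 after the start (RefSeq, GRCm38.p6), are shown for the Col4a1 and Col4a2 pair because the RNA ratio of these genes separated the genotypes. Capitals mark the 78 bases that both windows hold, which are reverse complements of each other (Col4a1 at chr8:11312777-11313076, minus strand, and Col4a2 at chr8:11312555-11312854, plus strand).
Col4a1: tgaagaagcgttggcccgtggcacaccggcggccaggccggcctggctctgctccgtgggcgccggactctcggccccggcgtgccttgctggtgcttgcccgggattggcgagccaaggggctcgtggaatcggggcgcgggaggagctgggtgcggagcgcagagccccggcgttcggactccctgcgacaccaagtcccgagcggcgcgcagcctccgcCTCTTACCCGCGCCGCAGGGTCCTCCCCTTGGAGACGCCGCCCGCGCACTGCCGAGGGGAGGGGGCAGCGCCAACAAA
Col4a2: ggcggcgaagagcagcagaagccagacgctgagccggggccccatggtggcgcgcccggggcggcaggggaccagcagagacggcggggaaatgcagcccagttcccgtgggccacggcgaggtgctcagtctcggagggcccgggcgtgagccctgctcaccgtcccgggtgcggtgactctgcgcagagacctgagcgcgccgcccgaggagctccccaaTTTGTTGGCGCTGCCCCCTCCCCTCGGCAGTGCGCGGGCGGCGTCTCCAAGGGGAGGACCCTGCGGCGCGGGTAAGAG
Col4a5 is shown as the type IV chain that rose in all 3 comparisons by the most, with capitals marking GGGCGG, the letters of a GC box, on either strand (chrX:141475169-141475468, plus strand).
Col4a5: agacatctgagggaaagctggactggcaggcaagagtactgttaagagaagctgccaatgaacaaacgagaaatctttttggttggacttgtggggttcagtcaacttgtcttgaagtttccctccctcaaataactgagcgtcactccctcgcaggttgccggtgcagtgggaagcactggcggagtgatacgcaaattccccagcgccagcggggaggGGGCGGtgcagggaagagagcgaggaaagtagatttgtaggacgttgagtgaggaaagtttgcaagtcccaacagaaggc
GGGCGG or its reverse complement occurred in 16 of the 21 reported chains that have a window (76.2%), against 38.2% of all genes with a window. The 21 chains were chosen by level and the other genes were not, so these shares do not set collagens apart from other expressed genes. The 78 bases shared by Col4a1 and Col4a2 hold a match that counts for both. CCAAT occurred in 7 of them (33.3%, against 41.1% of all genes), TATAAA in 2 (9.52%, against 15.7%) and TGGAAA, the core letters that NFAT factors recognise, in 3 (14.3%, against 23.9%), both strands searched. The windows of Col4a1 and Col4a2 are 74.0% and 73.7% G or C, that of Col4a5 52.7%, and all windows average 53.8%. TGGAAA was in none of the windows printed here.

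Col4a1 and Col4a2, the chains of the widespread type IV network, were the most abundant collagens besides Col3a1, and they parted between genotypes. Col4a1 had 68.3, 52.7 and 72.7 FPKM in CnATg hearts, against 77.2, 87.9 and 85.9 FPKM in WT hearts under JIB-04 at day 45. At day 45 under vehicle it had 65.2, 66.8 and 68.6 FPKM in CnATg hearts, against 85.0, 107.9 and 91.9 FPKM in WT hearts. All CnATg libraries lay below all WT libraries at day 45, at 0.771 times the WT mean under JIB-04 and 0.704 times under vehicle. The log2 differences were -0.38 ± 0.12 and -0.49 ± 0.12 (SE; limma adjusted p = 0.022 and 0.00548). Under JIB-04 at day 77 Col4a1 had 41.0, 53.8, 42.1 and 53.5 FPKM in CnATg hearts, against 61.9, 37.9 and 49.2 FPKM in WT hearts, and the libraries overlapped. The difference there was -0.04, with a 95% interval from -0.37 to 0.28. The Col4a1 call under JIB-04 at day 45 was lost when mitochondrial and hemoglobin genes were removed (-0.13) and in the fits without CnATg JIB-04 replicate 2 (-0.24, limma adjusted p = 0.076) or WT JIB-04 replicate 2 or 3.

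Col4a2 had 79.3, 61.9 and 75.5 FPKM in CnATg hearts, against 66.1, 72.8 and 74.0 FPKM in WT hearts under JIB-04 at day 45. With vehicle at day 45 it had 71.9, 71.2 and 74.4 FPKM in CnATg hearts, against 75.5, 85.1 and 72.5 FPKM in WT hearts. These libraries overlapped, and Col4a2 was not called in any genotype comparison (log2 difference 0.29 under JIB-04 at day 77, 0.02 under JIB-04 at day 45 and -0.10 under vehicle). Within each library, Col4a1 RNA was 0.777 to 0.969 times Col4a2 RNA in the 14 CnATg libraries and 1.05 to 1.27 times in the 9 WT libraries. It was below 1 in every CnATg library and above 1 in every WT library, in each of the 7 groups. The WT libraries of day 77 were all under JIB-04 and stood nearest to 1, at 1.05 to 1.11.

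The minor type IV chains, which assemble into specialised networks of kidney, muscle and other tissues, were higher in CnATg hearts, with calls in all 3 comparisons for Col4a5 and Col4a4 and in 2 for Col4a3. Col4a5 had 17.8, 16.6, 17.6 and 16.6 FPKM in CnATg hearts, against 8.35, 7.88 and 8.22 FPKM in WT hearts under JIB-04 at day 77. At day 45 it had 21.3, 18.1 and 21.02 FPKM in CnATg hearts, against 10.3, 12.3 and 9.71 FPKM in WT hearts under JIB-04. In vehicle hearts of day 45 it had 20.8, 19.9 and 21.8 FPKM in CnATg hearts, against 11.8, 9.44 and 10.1 FPKM in WT hearts. The libraries did not overlap, at 2.11, 1.87 and 1.99 times the WT mean and log2 differences of 0.99 ± 0.05, 0.85 ± 0.10 and 0.94 ± 0.10 (SE; limma adjusted p = 1.5e-07, 5.68e-05 and 2.68e-05). Col4a5 RNA was 0.289 to 0.435 times Col4a1 RNA in CnATg libraries and 0.0875 to 0.208 times in WT libraries. Col4a4 rose in all 3 comparisons by log2 differences of 0.43, 0.45 and 0.62, with 1.31 to 2.91 FPKM over 14 CnATg libraries, against 0.899 to 1.59 FPKM over 9 WT libraries. The Col4a4 call was lost in some fits without 1 library in both JIB-04 comparisons, for example 0.39 without WT JIB-04 day 77 replicate 2 (limma adjusted p = 0.056). Col4a3 rose under JIB-04 at day 77 (0.54) and under vehicle at day 45 (0.58) and had 0.38 under JIB-04 at day 45, where it was not called (limma adjusted p = 0.052). Of the exonic bases of Col4a3, 5.65% are shared in antisense with C430014B12Rik, so its counts without strand are less certain.

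Ratios between chains were taken within each library. Col3a1 RNA was 1.17 to 2.65 times Col4a1 RNA in the 14 CnATg libraries and 0.492 to 0.897 times in the 9 WT libraries. Col3a1 RNA was 2.24 to 2.66 times Col1a1 RNA in the 6 CnATg libraries of day 45, against 3.21 to 3.75 times in the 6 WT libraries of day 45. At day 77 the same ratio was 2.2 to 2.83 in 8 CnATg libraries and 2.25 to 2.76 in 3 WT libraries, which overlapped. These ratios were looked at after the levels were known and are given as descriptions without a test.

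**Figure D3:**
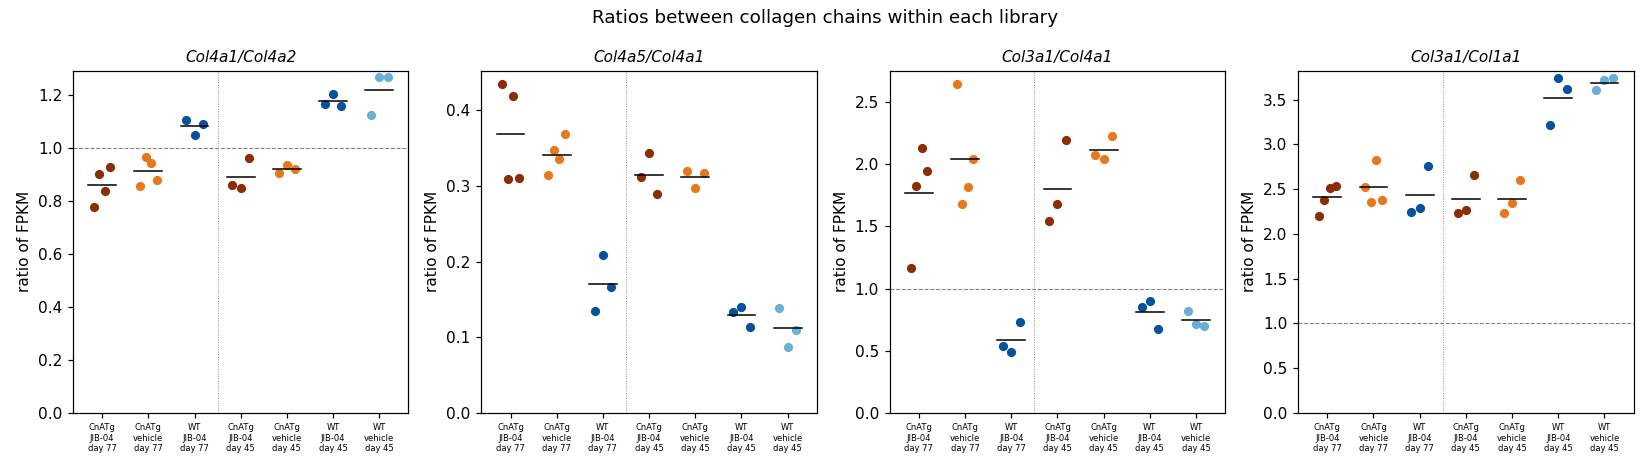
Ratio of the FPKM of pairs of collagen chains within each library (vertical axes, from 0; dashed line at 1 where a panel reaches it) in 7 groups (horizontal axis; day 77 left and day 45 right of the dotted line); points are libraries and bars group means. Col4a1 over Col4a2 is below 1 in all 14 CnATg libraries and above 1 in all 9 WT libraries, and Col3a1 over Col1a1 differs between genotypes at day 45 and overlaps at day 77.

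Of the 3 FACIT chains reported, Col14a1 and Col9a2 rose in all 3 comparisons, but Col9a2 passed the level rule only through CnATg libraries. Col14a1, which coats fibrils and limits their thickness, had 5.99, 14.9, 11.9 and 16.4 FPKM in CnATg hearts, against 2.18, 1.63 and 4.16 FPKM in WT hearts under JIB-04 at day 77. At day 45 under JIB-04 it had 10.9, 7.21 and 15.4 FPKM in CnATg hearts, against 5.21, 4.98 and 2.85 FPKM in WT hearts. Under vehicle at day 45 it had 10.4, 14.4 and 14.9 FPKM in CnATg hearts, against 5.88, 6.47 and 4.12 FPKM in WT hearts. The libraries did not overlap in any comparison, although single CnATg libraries came close to WT levels. Its log2 differences were 1.84 ± 0.32, 1.16 ± 0.26 and 1.14 ± 0.26 (SE; limma adjusted p = 0.000734, 0.00429 and 0.0049). Col9a2, a chain of the cartilage FACIT type IX, had 1.15, 2.09, 1.86 and 1.69 FPKM in CnATg hearts, against 0.0154, 0.142 and 0.247 FPKM in WT hearts under JIB-04 at day 77. In JIB-04 hearts of day 45 it had 2.54, 0.803 and 1.498 FPKM in CnATg hearts, against 0.121, 0.118 and 0.122 FPKM in WT hearts. Day-45 libraries under vehicle had 1.42, 3.28 and 2.17 FPKM in CnATg hearts, against 0.138, 0.395 and 0.120 FPKM in WT hearts. Every CnATg library lay above every WT library, and the log2 differences were 1.24, 1.17 and 1.40 on a scale that understates changes of such low values. The chains that assemble with Col9a2 into type IX collagen, named after their values were seen, stayed below the level rule: Col9a1 did not exceed 0.0196 FPKM and Col9a3 did not exceed 0.660 FPKM in any library. Col16a1, which sits on fibrils and near basement membranes, was not called: in JIB-04 hearts of day 77 it had 2.86, 4.76, 4.05 and 3.60 FPKM in CnATg and 1.65, 2.29 and 3.82 FPKM in WT, which overlapped. Its libraries also overlapped under JIB-04 at day 45, at 1.08 times the WT mean. Under vehicle at day 45 every CnATg library lay above every WT library, with means of 4.55 and 2.88 FPKM.

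Among the other chains, both type VIII chains rose in all 3 comparisons, but Col8a2 passed the level rule only through CnATg libraries. Col8a1 had 13.6, 21.9, 12.7 and 17.7 FPKM in CnATg hearts, against 4.68, 3.11 and 5.22 FPKM in WT hearts under JIB-04 at day 77. In JIB-04 hearts of day 45 it had 23.02, 15.5 and 23.8 FPKM in CnATg hearts, against 6.58, 5.78 and 6.12 FPKM in WT hearts. With vehicle at day 45 it had 21.4, 20.7 and 25.6 FPKM in CnATg hearts, against 6.86, 7.05 and 5.37 FPKM in WT hearts. The lowest CnATg library of all, at 11.4 FPKM, lay above the highest WT library, at 7.05 FPKM. Group means stood at 3.80, 3.37 and 3.51 times the WT mean, with log2 differences of 1.70 ± 0.20, 1.58 ± 0.15 and 1.67 ± 0.15 (SE; limma adjusted p = 5.46e-05, 1.02e-05 and 6.93e-06). Its promoter window (chr16:57754688-57754987, minus strand) is shown because Col8a1 had the largest difference of the chains at day 45 on the log2(FPKM + 1) scale, although the ratio of means was larger for the low chains Col9a2 (13.4 under JIB-04 and 10.5 under vehicle) and Col8a2 (7.497 under JIB-04 and 9.72 under vehicle), again with GGGCGG on either strand in capitals.
Col8a1: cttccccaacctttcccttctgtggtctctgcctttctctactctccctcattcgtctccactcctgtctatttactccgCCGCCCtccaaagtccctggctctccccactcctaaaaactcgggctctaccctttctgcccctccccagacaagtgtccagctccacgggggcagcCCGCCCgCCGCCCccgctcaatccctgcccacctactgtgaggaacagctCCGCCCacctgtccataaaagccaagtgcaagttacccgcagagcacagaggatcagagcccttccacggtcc
The window holds 4 matches, all as the reverse complement. Col8a2, its partner chain, was near the floor in WT hearts, at 0.0898 to 0.206 FPKM in 9 libraries, and had 0.568 to 2.40 FPKM in the 14 CnATg libraries, without overlap. The log2 differences of Col8a2 were 1.10, 0.89 and 1.08 (limma adjusted p = 0.00622, 0.00376 and 0.00103).

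Type VI collagen, the beaded filament beside cell surfaces, changed less. Col6a2 had 19.9, 30.3, 26.7 and 35.1 FPKM in CnATg hearts, against 17.7, 9.84 and 16.4 FPKM in WT hearts under JIB-04 at day 77. At day 45 under JIB-04 it had 34.2, 28.3 and 42.3 FPKM in CnATg hearts, against 26.9, 26.4 and 22.6 FPKM in WT hearts. In vehicle hearts of day 45 it had 41.8, 44.3 and 41.3 FPKM in CnATg hearts, against 28.1, 27.9 and 24.3 FPKM in WT hearts. The Col6a2 libraries did not overlap within a comparison, and its log2 differences were 0.90, 0.44 and 0.65 (limma adjusted p = 0.00395, 0.015 and 0.00143). Without WT JIB-04 day 45 replicate 3 the Col6a2 call at day 45 under JIB-04 was lost (0.36, limma adjusted p = 0.060). Col6a1 had 0.51, 0.18 and 0.34 and was called under JIB-04 at day 77 and under vehicle at day 45. Both Col6a1 calls were lost in some fits without 1 library, for example 0.30 without WT JIB-04 day 77 replicate 2 (limma adjusted p = 0.18) and 0.29 without WT vehicle day 45 replicate 3 (limma adjusted p = 0.076). Col6a3 had 0.24, 0.21 and 0.33 and was not called. Col6a2 RNA was 1.08 to 1.27 times Col6a1 RNA in the 14 CnATg libraries and 0.844 to 0.970 times in the 9 WT libraries, without overlap. Both genes lie on chromosome 10 and supply the same molecule. Col6a6, a low type VI chain, had 0.261, 0.883 and 0.441 FPKM in CnATg hearts, against 1.08, 1.27 and 1.40 FPKM in WT hearts under JIB-04 at day 45. Those libraries did not overlap and Col6a6 fell by 0.58 on the log2 scale (limma adjusted p = 0.023), a call lost in 4 of the 6 fits without 1 library and after removal of mitochondrial and hemoglobin genes. Only the WT libraries of that comparison reached 1 FPKM, so the level filter favoured the fall of Col6a6. At day 77, where it did not pass the level filter of the fit, it had 0.171 to 0.306 FPKM in 4 CnATg JIB-04 hearts and 0.919 to 1.43 FPKM in 3 WT JIB-04 hearts. Col15a1, an abundant chain of this class and part of the capillary and muscle basement membrane zone, was not called. It had 37.2, 27.8 and 35.9 FPKM in CnATg hearts, against 32.7, 31.3 and 25.4 FPKM in WT hearts under JIB-04 at day 45, which overlapped. Under JIB-04 at day 77 it had 18.5, 35.8, 23.8 and 34.6 FPKM in CnATg hearts, against 22.0, 14.2 and 19.2 FPKM in WT hearts, again with overlap and a log2 difference of 0.56 (limma adjusted p = 0.0508).

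The summed collagen RNA and its fibrillar and type IV shares separated CnATg from WT libraries within each genotype comparison. Summed over all 44 chains it was 434.7 ± 86.6 FPKM in CnATg JIB-04 hearts and 248 ± 51.5 FPKM in WT JIB-04 hearts at day 77, and 565 ± 107 FPKM against 413 ± 30.1 FPKM at day 45. Under vehicle at day 45 it was 646 ± 15.3 FPKM in CnATg hearts and 448 ± 38.6 FPKM in WT hearts (SD; n = 4 and 3 at day 77, 3 and 3 at day 45). No sums overlapped within a comparison: the lowest CnATg and the highest WT sums were 318 and 288 FPKM under JIB-04 at day 77, 457 and 445.7 FPKM under JIB-04 at day 45, and 630.3 and 490.4 FPKM under vehicle at day 45. Fibrillar chains made up 36.1 to 49.5% of the sum in the 14 CnATg libraries and 28.0 to 33.3% in the 9 WT libraries. Type IV chains made up 23.8 to 35.9% in CnATg libraries and 38.3 to 44.4% in WT libraries. Neither range overlapped between genotypes. FACIT chains made up 2.63 to 5.23% in CnATg libraries and 1.64 to 3.40% in WT libraries, and the other chains 22.5 to 26.2% in CnATg libraries and 23.8 to 26.5% in WT libraries. Within comparisons the FACIT share overlapped under JIB-04 at day 45 and did not under JIB-04 at day 77 or vehicle at day 45, and the share of the other chains overlapped in each. The library nearest to the WT range was CnATg JIB-04 day 77 replicate 1, at 36.1% fibrillar and 35.9% type IV. These sums are descriptions, since chains of a molecule are not independent.

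**Figure D4:**
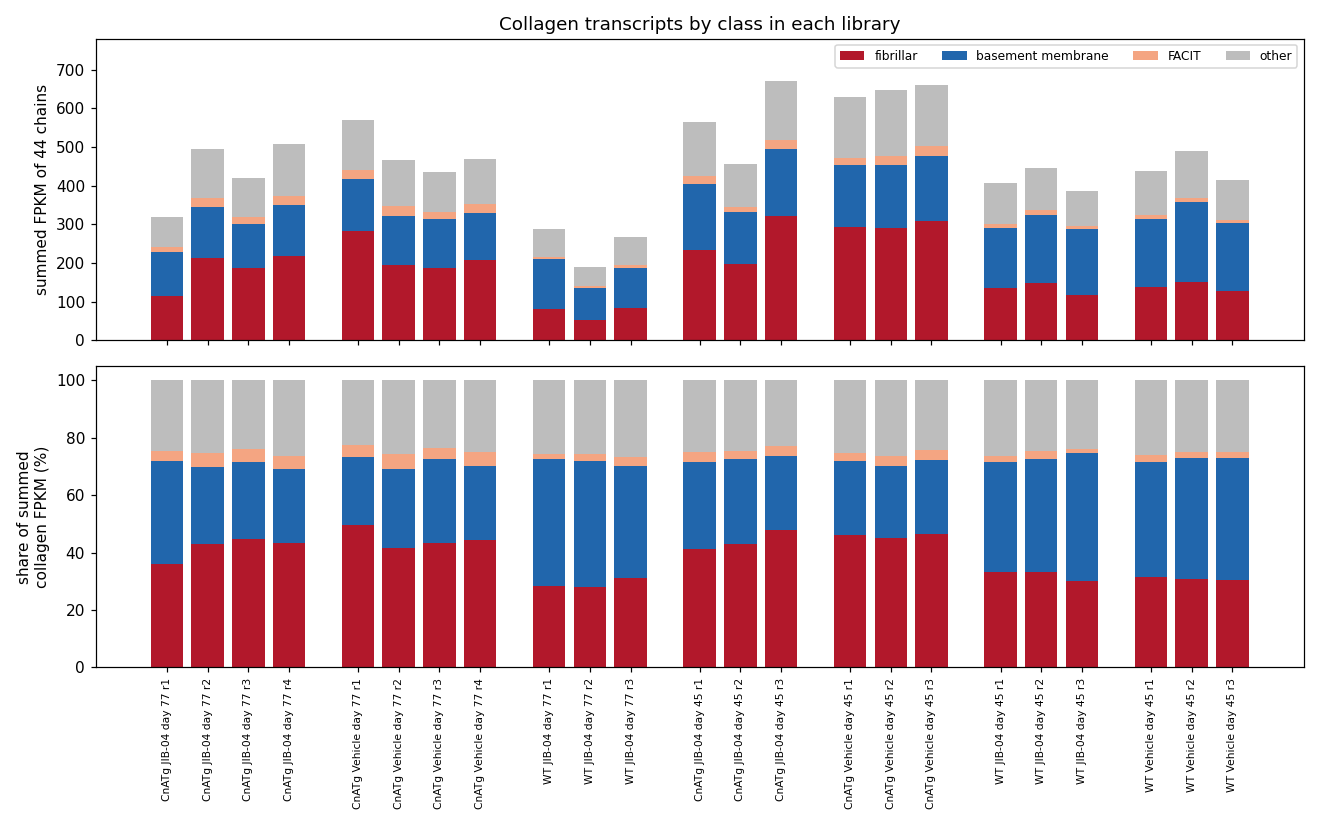
Summed FPKM of 44 collagen chains by class (upper bars) and the share of each class in that sum in percent (lower bars) for each of 23 heart libraries (horizontal axis; r is the replicate). Fibrillar chains take 36.1 to 49.5% in CnATg libraries and 28.0 to 33.3% in WT libraries.

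Lists of genes that process, organise or bind collagen were chosen with earlier results known and are given by counts. Over all features the share called higher was 19.9% under JIB-04 at day 77, 20.5% under JIB-04 at day 45 and 23.3% under vehicle at day 45, and the share called lower was 22.1%, 18.1% and 15.9%. Of 27 tested collagen processing genes, 11 rose and 5 fell in each genotype comparison (median log2 difference 0.32 under JIB-04 at day 77, 0.22 under JIB-04 at day 45 and 0.24 under vehicle at day 45, beside -0.01, 0.02 and 0.07 over all features). The 5 that fell are near the share over all features. Leprel1, a prolyl 3-hydroxylase of collagen chains, had 48.8 to 62.2 FPKM in the 14 CnATg libraries and 0.697 to 1.13 FPKM in the 9 WT libraries. Its log2 differences were 4.97, 4.89 and 4.80. Plod2, a lysyl hydroxylase that directs collagen cross-links, had 39.3 to 57.9 FPKM in CnATg libraries and 8.45 to 13.7 FPKM in WT libraries. Lox, the lysyl oxidase that cross-links fibrils, rose by 1.09 under vehicle at day 45. Pxdn, the peroxidasin that cross-links type IV collagen, went the other way, with 4.81 to 9.13 FPKM in CnATg libraries and 13.7 to 30.1 FPKM in WT libraries. Of the 4 type IV network partners, Nid2 and Agrn rose in all 3 comparisons and Nid1 fell in all 3. The remaining partner fell under JIB-04 at day 45 and was not called in the other comparisons. Nidogens link the laminin and type IV networks, and Nid2 had 13.5 to 22.97 FPKM in CnATg libraries against 4.18 to 7.91 FPKM in WT libraries. Of 14 fibril partners, 10 rose and 1 fell under JIB-04 at day 77, 9 rose and 1 fell under JIB-04 at day 45 and 9 rose under vehicle at day 45. Among them Aspn, a small proteoglycan that binds collagen, had 54.4 to 72.6 FPKM in CnATg libraries and 6.72 to 12.5 FPKM in WT libraries, and Comp, which binds several collagens, rose by 3.47, 2.43 and 2.31. Of the collagen receptors, 6 of 9 tested rose and 2 fell under JIB-04 at day 77, 5 of 10 rose and 2 fell under JIB-04 at day 45, and 6 of 10 rose and 2 fell under vehicle at day 45.

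Markers of cell types are given beside the chains, to be read against the same shares over all features. Of 7 fibroblast markers, 3 rose and 1 fell under JIB-04 at day 77, and 5 rose and 1 fell in each day-45 comparison. Their summed level did not overlap within a comparison, at 648 to 903 FPKM in CnATg and 504 to 638 FPKM in WT libraries under JIB-04 at day 77, 786 to 848 FPKM in CnATg and 511 to 667 FPKM in WT libraries under JIB-04 at day 45, and 701 to 778 FPKM in CnATg and 496 to 613 FPKM in WT libraries under vehicle at day 45. Pdgfra, a defining marker, had 5.42 to 7.86 FPKM in CnATg JIB-04 libraries and 5.18 to 6.65 FPKM in WT JIB-04 libraries at day 77, which overlapped, and 6.98 to 9.01 FPKM in CnATg libraries and 5.48 to 6.56 FPKM in WT libraries at day 45, which did not. Of 6 activated fibroblast markers 5 were tested in each comparison, and in each 4 rose and 1 fell. Their sum was 277 to 547 FPKM in CnATg libraries and 43.3 to 155.8 FPKM in WT libraries, carried mostly by Acta2, which smooth muscle also expresses. All 12 endothelial markers were tested, and 11, 10 and 12 of them fell. Their sum was 229.7 to 359 FPKM in CnATg libraries and 434 to 524 FPKM in WT libraries, with Cdh5 at 19.3 to 30.6 FPKM in CnATg libraries and 42.2 to 63.4 FPKM in WT libraries. Of the mural markers, which label pericytes and smooth muscle, 5 of 9, 5 of 8 and 4 of 8 tested fell and 1 rose in each. Of 6 cardiomyocyte markers 1 rose and 2 fell in each comparison, near the 42.1%, 38.6% and 39.2% called over all features. Of 5 valve and cartilage markers only Sox9 and Prg4 were tested, and both rose at day 45 under JIB-04 and under vehicle, while at day 77 Sox9 rose and Prg4 was not called. The sum of these 5 was 8.23 to 11.5 FPKM in CnATg and 2.97 to 9.58 FPKM in WT libraries under JIB-04 at day 77, which overlapped. At day 45 it was 4.43 to 13.1 FPKM in CnATg and 2.06 to 3.66 FPKM in WT libraries, both treatments together, without overlap, and Acan stayed under 0.1 FPKM in all libraries. These markers moved at day 45 beside the cartilage chain Col9a2, and their part in its difference was not tested. No marker of these 6 lists was at 0 in all libraries. The part of cell make-up in the collagen differences was not tested.

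JIB-04 changed no collagen chain beyond the threshold. Of 24 chains tested in each comparison, limma called 0 in CnATg hearts at day 77, 0 in CnATg hearts at day 45 and 0 in WT hearts at day 45, with 0, 3 and 1 at an unadjusted p under 0.05. The share of all features called by adjusted p was 0%, 0.00753% and 0%. Their share at an unadjusted p under 0.05 was not computed. The direction leaned to lower levels under JIB-04. In CnATg hearts at day 77, 20 of 24 chains had a negative difference (median -0.11, all features -0.03). In CnATg hearts at day 45 all 24 had (median -0.20, all features -0.03). In WT hearts at day 45, 20 of 24 had (median -0.07, all features 0.00). Without CnATg JIB-04 day 45 replicate 2, 17 of 24 chains were negative with a median of -0.11. Without CnATg JIB-04 day 77 replicate 1, 14 of 24 were negative with a median of -0.03. In WT hearts, 15 of 24 were negative without JIB-04 replicate 3 and 14 of 24 without vehicle replicate 2. Chains of a library are not independent observations.

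Levels of the main chains show the overlap. Col1a1 had 21.7, 41.3, 35.7 and 41.0 FPKM under JIB-04, against 56.1, 37.4, 33.2 and 40.6 FPKM under vehicle in CnATg hearts at day 77. The groups overlapped, at a log2 difference of -0.27 with a 95% interval from -0.78 to 0.24. At day 45 Col1a1 had 47.1, 38.9 and 60.01 FPKM under JIB-04 and 60.6, 58.2 and 58.9 FPKM under vehicle in CnATg hearts, a difference of -0.30 with an interval from -0.61 to 0.01. Col3a1 differed by -0.34 (-0.92 to 0.25) at day 77 and by -0.31 (-0.70 to 0.09) at day 45 in CnATg hearts. Col4a5 in CnATg hearts differed by -0.02 (-0.13 to 0.09) at day 77 and by -0.05 (-0.27 to 0.17) at day 45. The 3 chains at an unadjusted p under 0.05 in CnATg hearts at day 45 were Col15a1 (-0.30), Col6a2 (-0.29) and Col6a1 (-0.25), and Col15a1 was also the 1 chain so found in WT hearts (-0.28). Under median-ratio scaling, under quantile normalization and after removal of mitochondrial and hemoglobin genes 0 chains were at an unadjusted p under 0.05 in CnATg hearts at day 45, and under the scaling and the normalization 21 of 24 rather than 24 were negative. Col15a1 in CnATg hearts of day 77 differed by -0.04. The intervals leave room for a fall of Col1a1 by up to 0.78 on the log2 scale at day 77. The difference of the drug effect between genotypes at day 45 and between ages in CnATg hearts was called for 0 of 24 and 0 of 25 chains (all features 0.00753% and 0%), with 0 at an unadjusted p under 0.05 in each.

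**Figure D5:**
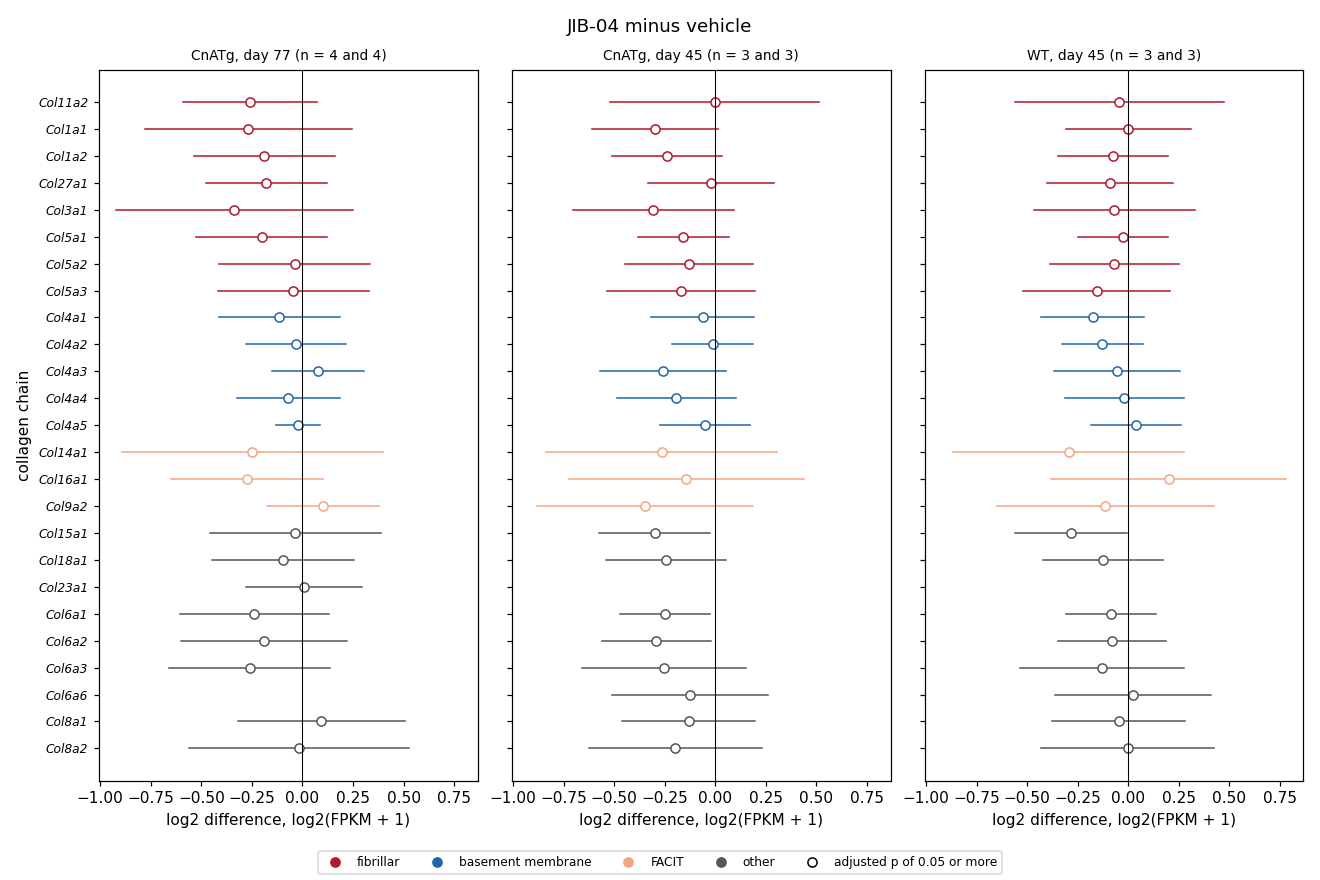
Log2 difference, JIB-04 minus vehicle, on the log2(FPKM + 1) scale (horizontal axis) for each collagen chain (vertical axis, ordered and coloured by class) in CnATg hearts at day 77, CnATg hearts at day 45 and WT hearts at day 45; lines are 95% confidence intervals. All points are open, since 0 chains had an adjusted p under 0.05, and the medians are -0.11, -0.20 and -0.07.

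Between the ages, most collagen chains had lower values at day 77 than at day 45 in the 3 kinds of heart that could be compared, but few passed the threshold. In CnATg JIB-04 hearts 21 of 25 chains had a negative difference (median -0.28), in CnATg vehicle hearts 20 of 25 (median -0.38) and in WT JIB-04 hearts 22 of 25 (median -0.48), beside medians of -0.01, -0.01 and 0.03 over all features. At an unadjusted limma p under 0.05 there were 11 of 25 chains in CnATg JIB-04 hearts, 15 in CnATg vehicle hearts and 16 in WT JIB-04 hearts. The share of all features at that unadjusted threshold was not computed. By adjusted p, limma called 0 of 25 chains in CnATg hearts under JIB-04 and 0 of 25 under vehicle, where 0.0365% of all features were called in each. In WT JIB-04 hearts 3 of 25 fell by adjusted p, where 0.328% of all features were called and 0.117% were lower. Both Col4a1 and Col4a2 were among these, and so was Col5a1. Col4a1 had 61.9, 37.9 and 49.2 FPKM at day 77, against 77.2, 87.9 and 85.9 FPKM at day 45 in WT JIB-04 hearts. Col4a2 had 55.8, 36.0 and 45.0 FPKM at day 77, against 66.1, 72.8 and 74.0 FPKM at day 45. Col5a1 had 5.86, 3.69 and 4.91 FPKM at day 77, against 8.49, 8.29 and 8.27 FPKM at day 45. No day-77 library of these chains reached a day-45 library, and replicate 2 was the lowest of day 77 for each. The log2 differences were -0.77, -0.65 and -0.70 (limma adjusted p = 0.0398, 0.0361 and 0.0437). Without WT JIB-04 day 77 replicate 2 they were -0.59, -0.49 and -0.56, and 0 chains were called, as was the case without WT JIB-04 day 45 replicate 2 or 3; without WT JIB-04 day 77 replicate 3 1 chain was called. No chain of the 25 was called without the 3 lowest libraries or in a fit of only the WT JIB-04 groups (all 3 at a limma adjusted p of 0.292 or more).

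In the same WT hearts Col3a1 had 33.3, 18.6 and 35.9 FPKM at day 77, against 66.0, 78.8 and 58.2 FPKM at day 45. The groups did not overlap, at 0.432 times the day-45 mean, yet the log2 difference of -1.22 missed the threshold (limma adjusted p = 0.0535). In CnATg hearts Col3a1 differed by -0.48 under JIB-04 and -0.45 under vehicle, and Col1a1 by -0.49 and -0.52. Col14a1 and Col8a2 were near 0 with age in CnATg vehicle hearts, at 0.09 and -0.00. Col23a1, a membrane-spanning chain at the edge of the level rule, leaned the other way, by 0.47 in CnATg JIB-04 hearts, 0.24 in CnATg vehicle hearts and 0.41 in WT JIB-04 hearts, and was not called. The groups compared for age in CnATg and in WT hearts share no library, but these comparisons came from the same fit of all 23 libraries. The difference of the age effect between genotypes under JIB-04 was called for 0 of 25 chains, with 0 at an unadjusted p under 0.05, where 0.00729% of all features were called. For Col4a1, whose genotype difference was called at day 45 and not at day 77, that term was 0.34 with a 95% interval from -0.08 to 0.76 (limma adjusted p = 0.81).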

How the data were processed

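RNA was extracted with Trizol and made into mRNA libraries without strand, per the labels' protocols. The submitters' processing notes name GRCm38 and, as tools, Cufflinks 2.2.1, GATK 4.1.2, STAR 2.7.1a and Picard; their roles, annotation and filters are not given in the sources used here. The authors deposited each feature's FPKM on a log2 scale, as the file headers say, and it was read as log2(FPKM + 1) because zeros are exact and none is negative. FPKM was computed back from them. Of 43154 features, 3 mitochondrial genes listed at 0 in 13 libraries were left out.

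Comparisons used limma 3.58.1 in R 4.3.3 on log2(FPKM + 1): linear model by group, moderated test (two-sided) with a trend on mean level, Benjamini-Hochberg over features with at least 1 FPKM in at least 3 libraries of the fit, adjusted p under 0.05. Fits held the 12 libraries of day 45, the 11 of day 77, or all 23 across ages, for 12 comparisons. The fold changes understate low genes. The script was tested on simulated data. Alternatives covered the pseudocount, filters, scaling, libraries in the fit, a replicate block and left-out libraries. Replicate numbers did not pair the libraries (correlations of deviations -0.12 to 0.22). Members and lists were chosen with earlier results of these data known. Every library's value, or a range, is given in at least 1 comparison, not in all, for the 2 most abundant chains of a class. The same holds for called chains with a log2 difference of at least 1. Of list genes up to 3 each way are named. Gene positions of 24 of the 25 chains had the same span in GENCODE M21.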

Additional observations from a re-analysis of the deposited data

Results flagged for a closer look

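In 50 checks of a chain in a group of 4 libraries, 1 library stood apart from the others by more than the 95% limit of Dixon's test, which chance alone passes in about 1 of 20 groups. Col4a2 had 62.4 FPKM in CnATg vehicle day 77 replicate 1, against 53.8 to 54.8 FPKM in the other libraries of that group. The same library was the highest of its group for 15 of the 25 chains, with summed collagen of 570 FPKM against 434.4 to 469.7 FPKM in the others. No difference of the drug or age effect between groups was called for any chain.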

How the results depend on the processing

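No called chain changed sign in any alternative in which it was tested. Among values of single chains, 736 kept their side of the threshold and 69 lost their call. These values include the drug differences of Col1a1, Col1a2 and Col3a1 in CnATg hearts, which were not called as reported. Fits in which a called chain failed the level filter gave no value and are not counted as lost. The number of called collagens stayed within 1.5 times of the reported one in all comparisons but the age comparison of WT JIB-04 hearts. There the 3 calls became 1 under quantile normalization and 0 after removal of mitochondrial and hemoglobin genes, with only the groups compared in the fit, with the replicate block, and without the 3 libraries low in most collagens; leaving out 1 library gave 0 to 4. Leaving out 1 library gave 12 to 18 calls for genotype under JIB-04 at day 77, 10 to 15 under JIB-04 at day 45 and 14 to 16 under vehicle, and 0 for all drug comparisons, the other age comparisons and the interactions. The replicate block changed no other call but Col5a1 and Col6a1 under JIB-04 at day 77; the numbers do not pair the libraries. Removing mitochondrial and hemoglobin genes shifted the median of all features by 0.20, 0.22 and 0.09 in the genotype comparisons (JIB-04 day 77, JIB-04 day 45, vehicle), by -0.12 for JIB-04 in WT hearts and by 0.12 for the interaction of genotype and drug. It made 77.8%, 83.5% and 73.6% of the genotype calls higher ones, against 47.4%, 53.2% and 59.5% as reported; median-ratio scaling gave 49.1% and quantile normalization 45.6% under vehicle. Of the calls over all features between ages in WT JIB-04 hearts 64.4% were higher as reported, 27.6% with median-ratio scaling, 40% with quantile normalization and 85.7% after that removal. The causes were not tested. Depth limits chains near 1 FPKM, whose counts are unknown.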
